A study of Mus musculus with 4 samples.

Results

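A set of 10 genes of the Notch pathway were read in every cell of the proximal P14 mouse testis: the receptors *Notch1*, *Notch2* and *Notch3*, the ligands *Jag1*, *Jag2* and *Dll4*, and the targets *Hes1*, *Hey1*, *Heyl* and *Nrarp*. They were picked by gene symbol, with earlier results of these data known, and all 10 were found among the 31053 genes counted.

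The data were UMI counts, in which every captured RNA molecule carries a unique molecular identifier, from cells dissociated from the rete testis (RT) and the seminiferous tubules next to it. There were 2 control and 2 *Sox17*-cKO libraries. The study compared them to ask what the loss of *Sox17* from the RT epithelium does to the valve-like end of the tubules. All mice were C57BL/6 males at P14. In *Sox17*-cKO mice a Cre recombinase driven by SF1 (*Nr5a1*) sequences, active in somatic cells of the gonad, acts on floxed *Sox17* alleles. The sample records give the controls the same Cre transgene, genotype SF1Cre, whereas the methods call them littermates with floxed alleles. Cells of 3 pups were pooled in each library, so that a value is that of a pool, and animals within it cannot be told apart. By the study's methods, part of the interstitial cells did not go into the libraries, which bears on how many stromal, mural and endothelial cells were left to count.

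Notch receptors are cut when a ligand on a neighbouring cell binds them, and the freed intracellular part joins the DNA-binding protein RBPJ in the nucleus to switch on targets such as the *Hes* and *Hey* repressors and *Nrarp*, a feedback inhibitor of the same complex. Jagged and Delta-like ligands stay in the membrane of the sending cell, so sender and receiver have to touch. In blood vessels the pathway is known for arterial endothelium, which carries *Dll4*, and for mural cells, the pericytes and smooth muscle cells that depend on *Notch3*. In the testis it is known for contact between germ cells and Sertoli cells, the somatic cells that nurse them.

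The libraries held 89969877 to 107203219 UMIs in 9388 to 13364 barcodes, of which 5174 to 6135 per library had 1000 to 4500 detected genes and were kept, 22567 cells in all. Their median depth lay between 5040 and 7872 UMIs, and 20 to 43 barcode sequences were shared by any pair of libraries. Clustering without the described genes gave 21 clusters, and 17 of them entered 10 classes by their marker genes: germ-like (7014 cells), Sertoli-like (5345), RT-like (228), stroma-like (2861), peritubular myoid-like (2157), mural-like (296), endothelial-like (72), Leydig-like (227), macrophage-like (296) and cluster 5 (1665 cells). Cluster 5 was closest to stroma but had the mural list gene *Ebf1* among its leading genes *Plac8*, *Vcam1* and *Dlk1*, and is called by its number. The unnamed clusters took 11.9% of control 1, 2.55% of control 2, 21.7% of *Sox17*-cKO 1 and 5.73% of *Sox17*-cKO 2, mostly from cluster 7 (median mitochondrial share of UMIs 35.0%) and cluster 11 (29.5%). A level below is the gene's UMIs per 1000000 UMIs of the class in a library (CPM), and its error is the SD over the 4 libraries. Classes were compared with edgeR's quasi-likelihood test on summed UMIs with the library as a block, and adjusted p-values cover all 12330 genes tested.

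The classes differ in depth. The endothelial-like sums came from 8 and 24 cells in control 1 and 2 and from 14 and 26 cells in *Sox17*-cKO 1 and 2. They held 64998, 180188, 98021 and 178197 UMIs in that order, so that 1 UMI there was worth 5.55 to 15.4 CPM. The mural-like class had 45, 115, 71 and 65 cells in the same order and 1 UMI was worth 1.23 to 3.47 CPM. In germ-like cells it was worth at most 0.098 CPM. All 12 endothelial markers were detected in the endothelial-like class, at 8600 to 9837 summed CPM per library, and all 12 mural markers in the mural-like class, at 4973 to 6605 CPM. Markers of neighbouring vessel cells were present too: the mural list summed to 531 to 2723 CPM in endothelial-like cells, and the endothelial list to 232 to 344 CPM in mural-like cells, where *Pecam1* and *Tek* were at 0 and the other 10 were detected. The peritubular myoid list, contractile genes that vascular smooth muscle also expresses, was higher in the mural-like class (30539 to 49187 CPM) than in the peritubular myoid-like class itself (20617 to 28867 CPM), and its part in differences between these classes was not tested.

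Upstream sequence is shown for *Notch3*, *Dll4* and *Nrarp*, a receptor, a ligand and a target that were each highest in mural-like or endothelial-like cells. RefSeq promoters (GRCm38.p6) were at hand for 7 of the 10 genes: *Notch1*, *Notch2*, *Notch3*, *Jag1*, *Jag2*, *Dll4* and *Nrarp*. The 250 bases before each start site were searched on both strands for the RBPJ core TGGGAA and for CACGTG and CACGCG, hexamers that HES and HEY proteins are known to bind. Each run reads 5′ to 3′ on the gene's own strand, with a matched hexamer in capitals.
*Notch3* chr17:32166891-32167140: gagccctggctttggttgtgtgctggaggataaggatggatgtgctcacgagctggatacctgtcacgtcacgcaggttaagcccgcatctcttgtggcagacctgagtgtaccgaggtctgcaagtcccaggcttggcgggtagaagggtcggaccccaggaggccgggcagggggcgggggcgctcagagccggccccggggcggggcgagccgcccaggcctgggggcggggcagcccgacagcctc
*Dll4* chr2:119325534-119325783: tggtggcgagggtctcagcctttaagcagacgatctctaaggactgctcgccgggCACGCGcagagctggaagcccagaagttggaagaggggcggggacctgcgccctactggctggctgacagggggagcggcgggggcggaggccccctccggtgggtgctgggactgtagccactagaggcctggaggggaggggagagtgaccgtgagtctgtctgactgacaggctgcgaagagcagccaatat
*Nrarp* chr2:25180508-25180757: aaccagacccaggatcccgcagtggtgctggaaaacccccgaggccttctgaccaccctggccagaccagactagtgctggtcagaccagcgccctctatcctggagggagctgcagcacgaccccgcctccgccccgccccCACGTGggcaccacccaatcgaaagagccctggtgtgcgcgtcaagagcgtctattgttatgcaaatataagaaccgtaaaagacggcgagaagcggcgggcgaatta

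TGGGAA was found in 0 of these 7 windows, against 21.59% of all 32851 promoters of the same length. CACGTG was found in that of *Nrarp* alone, 108 bases before the start, against 6.02% of promoters. CACGCG lay 195 bases before the start of *Dll4*, and also in the windows of *Notch2* and *Jag1*, against 7.62% of promoters. These are matches of letters in a short window and say nothing of binding.

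**Figure D1:**
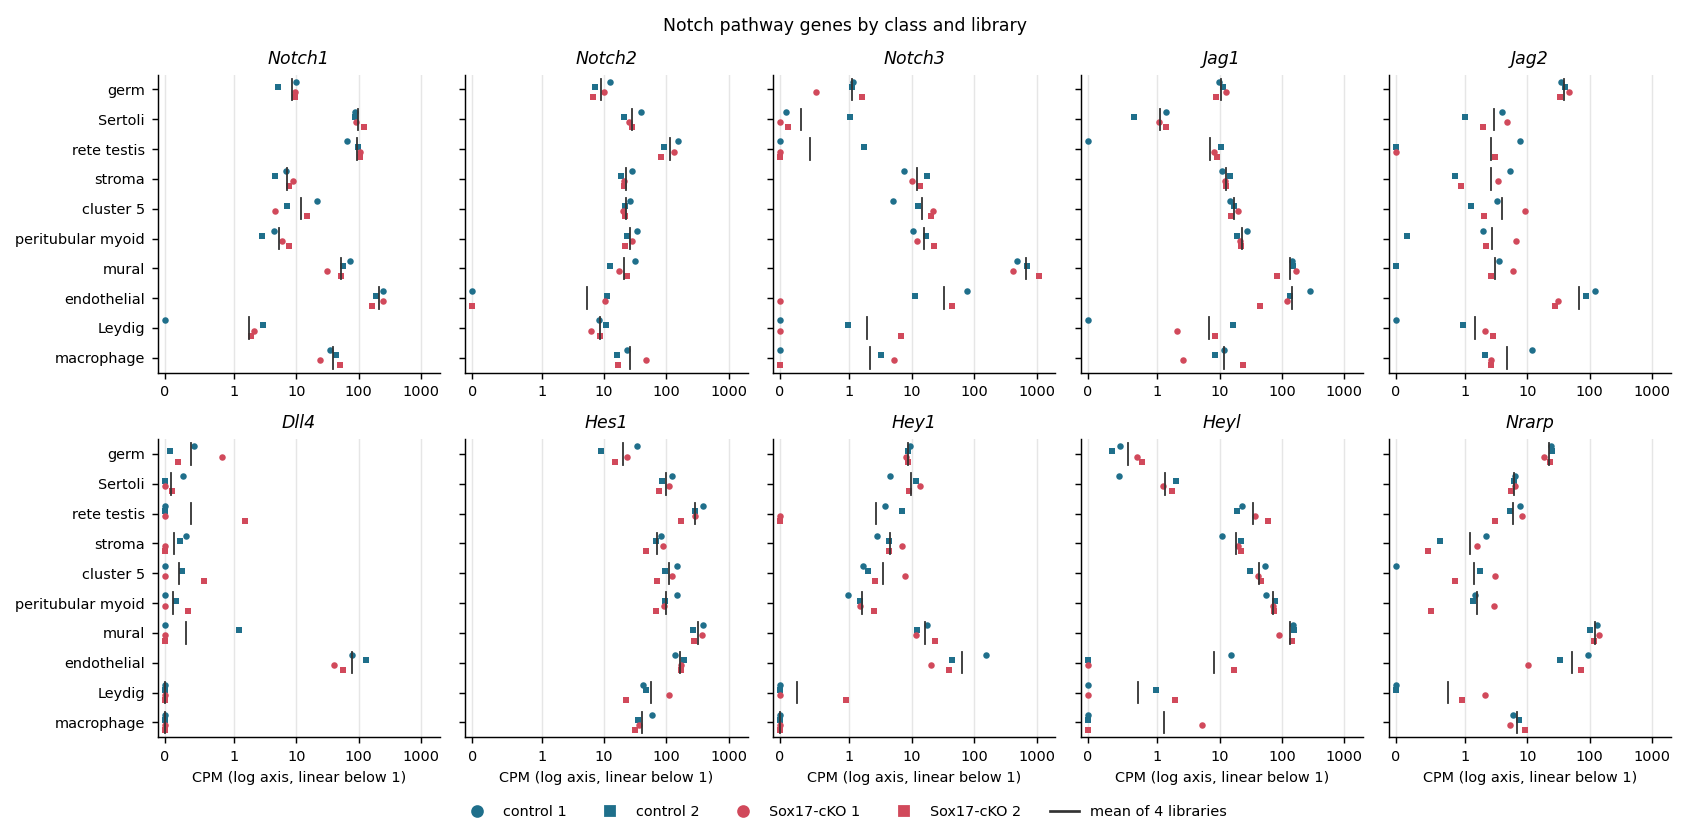
Levels of the 10 genes in each class, in CPM on an axis that is logarithmic above 1, with a point for every library (blue, control; red, *Sox17*-cKO; circles, replicate 1; squares, replicate 2) and a bar at the mean of the 4. *Notch3*, *Heyl* and *Nrarp* stand highest in mural-like cells, *Dll4* and *Notch1* in endothelial-like cells, and *Notch2* in RT-like cells.

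The receptors each had a class of their own. *Notch1* was highest in endothelial-like cells and next in Sertoli-like and RT-like cells, *Notch2* in RT-like cells, and *Notch3* in mural-like cells. *Notch1* (ENSMUSG00000026923; GRCm38 chr2:26457903-26516663, minus strand) was at 246 and 189 CPM in the endothelial-like cells of control 1 and 2 and at 245 and 163 CPM in those of *Sox17*-cKO 1 and 2. In Sertoli-like cells it was at 88.6 and 86.5 CPM in the controls and 90.8 and 122 CPM in *Sox17*-cKO. Every endothelial-like value lay above every Sertoli-like value, and the difference was 0.87 ± 0.24 (log2, SE; edgeR, adjusted p = 0.00247). Sertoli-like cells in turn exceeded stroma-like cells by 3.67 ± 0.21 (adjusted p = 6.7e-19) and germ-like cells by 3.66 ± 0.18 (adjusted p = 2.7e-20), in 4 of 4 libraries.

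RT-like cells had 92.9 ± 19.3 CPM of *Notch1*, mural-like cells 53.0 ± 17.0 and macrophage-like cells 38.4 ± 11.8. Neighbours from Sertoli-like down to macrophage-like cells did not differ beyond their spread. Below them came cluster 5 at 11.99 ± 7.63, germ-like cells at 8.59 ± 2.30, stroma-like cells at 6.97 ± 1.75, peritubular myoid-like cells at 5.20 ± 2.04 and Leydig-like cells at 1.73 ± 1.24 CPM. The Sertoli marker list, itself at 15900 to 18149 CPM in Sertoli-like cells, also read 385 to 1286 CPM in germ-like cells, and its part in their low *Notch1* was not tested.

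Within Sertoli-like cells *Notch1* was uneven. It was at 125.0 ± 23.0 CPM in cluster 1, led by *Clu* and *Inha*, at 62.2 ± 20.1 CPM in cluster 17, led by *Wfdc18* and *Tesc*, and at 28.1 ± 5.6 CPM in cluster 2, led by *Tsx* and *Defb36*. The order was the same in 4 of 4 libraries. The clusters differed in depth too, with a median of 8314 UMIs per cell in cluster 1, 6289 in cluster 17 and 2649 in cluster 2, and its part in the level was not tested. A UMI of *Notch1* was seen in 33.1% of Sertoli-like cells (95% exact binomial interval 31.9 to 34.4) and in 6.63% of germ-like cells, at median depths of 5247 and 8221.5 UMIs. With every cell thinned to 2000 UMIs, which left out 506 and 243 shallower cells, the shares were 13.99% and 1.88%. Intervals on shares of cells cover counting error only.

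*Notch2* (ENSMUSG00000027878; chr3:98013527-98150361, plus strand) was at 151 and 91.8 CPM in the RT-like cells of the controls and at 132 and 82.7 CPM in those of *Sox17*-cKO. The next class, Sertoli-like, had 39.0 and 21.0 CPM in the controls and 25.5 and 28.2 CPM in *Sox17*-cKO. No RT-like value fell within that range, and the difference was 1.76 ± 0.17 (edgeR, adjusted p = 1.3e-11). From Sertoli-like down to mural-like cells 6 classes sat close together, between 21.2 and 28.4 CPM, and neighbours among them did not differ beyond their spread. Endothelial-like cells held 3 UMIs of *Notch2* in all, against 37 in mural-like cells, a ratio of pooled levels of 3.22 in favour of mural-like cells (95% counting interval 1.02 to 16.3). A UMI of *Notch2* was found in 47.4% of RT-like cells and 15.2% of Sertoli-like cells, or 19.5% and 5.06% after thinning.

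*Notch3* (ENSMUSG00000038146; chr17:32120820-32166852, minus strand), the receptor of vascular smooth muscle whose upstream run is printed above, was at 486 and 697 CPM in the mural-like cells of the controls and at 417 and 1089 CPM in those of *Sox17*-cKO. The genotypes overlapped, and both replicate 2 libraries were above both replicate 1 libraries. Summed stroma markers in the same cells ran the same way, at 2394 and 3519 CPM in the replicate 1 libraries and 12395 and 8332 CPM in the replicate 2 libraries, and their part in the level was not tested.

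Stroma-like cells had 12.02 ± 4.29 CPM of *Notch3*, peritubular myoid-like cells 15.5 ± 5.71 and cluster 5 14.8 ± 7.62. Mural-like cells exceeded stroma-like cells by 5.61 ± 0.24 (edgeR, adjusted p = 3.4e-21) and peritubular myoid-like cells by 5.30 ± 0.24 (adjusted p = 2.0e-20). Endothelial-like cells had 5 and 2 UMIs of *Notch3* in control 1 and 2 and 0 and 8 in *Sox17*-cKO 1 and 2, and all 15 lay in the 7 endothelial-like cells that also held a UMI of the mural marker *Rgs5*. Mural-like cells were higher than the endothelial-like class by 4.86 ± 0.38 (adjusted p = 4.0e-13). *Notch3* was seen in 90.5% of mural-like cells (86.6 to 93.6), 69.2% after thinning, and in 0.131% of Sertoli-like cells.

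The ligands divided between vessels and germ cells. *Jag1* was highest in endothelial-like and mural-like cells, *Jag2* in endothelial-like and germ-like cells, and *Dll4* in endothelial-like cells. *Jag1* (ENSMUSG00000027276; chr2:137081456-137116644, minus strand), a ligand of arterial walls, was at 277 and 133 CPM in the endothelial-like cells of the controls and 122 and 44.9 CPM in those of *Sox17*-cKO. In mural-like cells it was at 142 and 152 CPM in the controls and 168 and 84.1 CPM in *Sox17*-cKO. These ranges overlapped, and the fitted difference of endothelial-like from mural-like cells was -0.42 ± 0.32 (edgeR, adjusted p = 0.43), of the opposite sign to the difference in mean CPM. Endothelial-like cells were higher in 1 of the 4 libraries. Over the alternatives the difference ran from -1.11 to -0.26 (edgeR, adjusted p from 0.015 to 0.74). These include leaving out cells chosen by their *Rgs5* or *Sox17* UMIs after the values were seen. With a library left out the difference ran from -0.73 to -0.26. Mural-like cells exceeded peritubular myoid-like cells, at 22.53 ± 3.598 CPM, by 2.51 ± 0.26 (adjusted p = 1.6e-10). Sertoli-like cells were lowest at 1.13 ± 0.33 CPM, with a *Jag1* UMI in 0.692% of cells against 48.0% of mural-like cells.

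*Jag2* (ENSMUSG00000002799; chr12:112907819-112929776, minus strand) was at 34.8 and 39.6 CPM in the germ-like cells of the controls and 46.6 and 33.4 CPM in those of *Sox17*-cKO, a spread of 38.6 ± 5.98 CPM over 2280 UMIs. Endothelial-like cells had 123 and 88.8 CPM in the controls and 30.6 and 28.1 CPM in *Sox17*-cKO. The control values were above the germ-like range and the *Sox17*-cKO values below it, and over all libraries these classes did not differ detectably (0.73 ± 0.45, edgeR, adjusted p = 0.17). Germ-like cells exceeded Sertoli-like cells, at 2.91 ± 1.73 CPM, by 3.64 ± 0.31 (adjusted p = 1.4e-13). Outside germ-like and endothelial-like cells no class had a mean above 4.78 CPM. A *Jag2* UMI was found in 25.0% of germ-like cells (24.0 to 26.0) and 1.70% of Sertoli-like cells, or 7.47% and 0.641% after thinning.

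*Dll4* (ENSMUSG00000027314; chr2:119325784-119335962, plus strand), the Delta-like ligand of arterial and sprouting endothelium, was at 76.9 and 133 CPM in the endothelial-like cells of the controls and 40.8 and 56.1 CPM in those of *Sox17*-cKO, from 5, 24, 4 and 10 UMIs. In every other class its mean was at or below 0.383 CPM, and Leydig-like and macrophage-like cells held 0 UMIs. Endothelial-like cells exceeded germ-like cells, which held 25 UMIs, by 7.46 ± 0.55 (edgeR, adjusted p = 1.4e-13). The single *Dll4* UMI of mural-like cells gave a ratio of pooled levels of 165 (counting interval 28.0 to 6647). Against Leydig-like cells the ratio was at least 73.5-fold, and against macrophage-like cells at least 62.0-fold, at a floor of 3 UMIs over the class. *Dll4* was detected in 20 of 72 endothelial-like cells (27.8%, interval 17.9 to 39.6) and in 0.075% of Sertoli-like cells.

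Germ-like cells fell into 6 clusters, and *Jag2* rose and fell across them. Ordered by their leading genes they were cluster 12 (*Zbtb16*, *Nanos3*), cluster 8 (*Crabp1*, *Dnmt3b*), cluster 4 (*Dmrtb1*, *Esx1*), cluster 6 (*Stra8*, which marks the entry into meiosis), cluster 10 (*Terb1*, *Msh5*) and cluster 9 (*Gml*, *Fabp9*). *Jag2* was at 10.6 ± 1.96 CPM in cluster 12, 26.3 ± 8.70 in cluster 8, 51.4 ± 6.42 in cluster 4, 77.5 ± 18.8 in cluster 6, 23.5 ± 6.06 in cluster 10 and 8.58 ± 2.42 in cluster 9. It peaked in cluster 6 in 4 of 4 libraries, at 88.2 and 56.6 CPM in the controls and 97.6 and 67.5 CPM in *Sox17*-cKO.

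*Jag1* had its highest germ-like levels in the same clusters, 16.2 ± 3.22 CPM in cluster 4 and 17.7 ± 6.13 CPM in cluster 6. The feedback inhibitor *Nrarp* peaked earlier, at 36.8 ± 15.1 CPM in cluster 8 and 40.5 ± 2.64 CPM in cluster 4, and stood at 2.35 ± 0.62 CPM in cluster 10. *Hes1* was highest in cluster 12, at 54.2 ± 16.1 CPM, and then 39.1 ± 13.1 CPM in cluster 8, 12.7 ± 5.25 in cluster 4 and 7.01 ± 4.52 in cluster 6. In each of the 4 libraries *Hes1* decreased from cluster 12 to 8, from 8 to 4 and from 4 to 6 while *Jag2* increased over the same steps. These are levels in clusters that other genes defined, and they were not tested against each other.

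**Figure D2:**
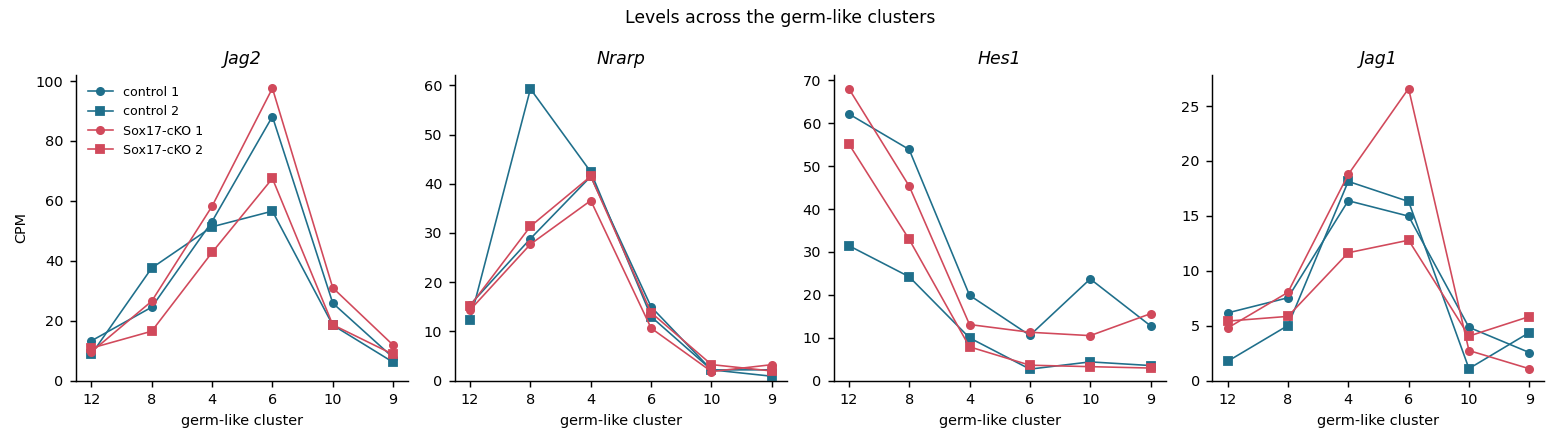
CPM of *Jag2*, *Nrarp*, *Hes1* and *Jag1* in the germ-like clusters, with a line for every library (blue, control; red, *Sox17*-cKO). *Jag2* is highest in cluster 6 in each library, *Nrarp* in cluster 4 or 8, and *Hes1* in cluster 12.

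The targets were highest in mural-like cells, apart from *Hey1*, which was highest in endothelial-like cells. *Hes1* (ENSMUSG00000022528; chr16:30064384-30067796, plus strand), a repressor that answers to Notch and to other signals, was at 385 and 264 CPM in the mural-like cells of the controls and 378 and 273 CPM in those of *Sox17*-cKO. RT-like cells had 378 and 286 CPM in the controls and 290 and 173 CPM in *Sox17*-cKO. These ranges overlapped (difference 0.49 ± 0.21, edgeR, adjusted p = 0.062). The adjusted p ran from 0.0040 to 0.28 over the alternatives for this pair, and it was 0.032 without control 2. RT-like cells exceeded Sertoli-like cells, at 98.2 ± 21.7 CPM, by 1.30 ± 0.20 (adjusted p = 5.9e-07), and mural-like cells exceeded endothelial-like cells, at 167 ± 21.0 CPM, by 1.07 ± 0.27 (adjusted p = 0.0022). From RT-like down to macrophage-like cells neighbours did not differ beyond their spread, and germ-like cells were lowest at 20.2 ± 10.6 CPM.

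*Hes1* also differed by replicate number. In 7 of 10 classes both replicate 1 libraries were above both replicate 2 libraries, and in 0 classes below them. In Sertoli-like cells it was at 123 and 110 CPM in control 1 and *Sox17*-cKO 1 and at 83.8 and 76.6 CPM in control 2 and *Sox17*-cKO 2. The replicate 1 libraries also carried Cell Ranger version 6.0.2 and the higher median shares of mitochondrial UMIs, 8.83% and 7.16% against 5.77% and 5.45%, and the part of either in the *Hes1* level was not tested. *Jag2*, *Notch2* and *Nrarp* were higher in both replicate 1 libraries in 5 classes each, and *Notch3* in both replicate 2 libraries in 5. Some of these classes were near the floor. *Jag2* in macrophage-like cells had 2 and 1 UMIs in the replicate 1 libraries and 2 and 2 in the replicate 2 libraries. The share of all genes that split by replicate number was not counted, so these numbers and that of *Hes1* have no background.

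*Heyl* (ENSMUSG00000032744; chr4:123233556-123249875, plus strand), a repressor of the *Hey* family found in smooth muscle, was at 153 and 158 CPM in the mural-like cells of the controls and 89.99 and 145 CPM in those of *Sox17*-cKO. Peritubular myoid-like cells, the contractile cells around the tubules, had 56.5 and 77.5 CPM in the controls and 73.0 and 75.9 CPM in *Sox17*-cKO. The ranges did not overlap, with a difference of 0.83 ± 0.22 (edgeR, adjusted p = 0.0030). Peritubular myoid-like cells exceeded cluster 5, at 43.1 ± 9.23 CPM, by 0.93 ± 0.22 (edgeR, adjusted p = 0.0024). Between these 2 classes 14.3% of all genes passed, with 7.95% higher in peritubular myoid-like cells and 6.37% in cluster 5. RT-like cells at 34.8 ± 18.7 and stroma-like cells at 18.7 ± 5.36 CPM followed without a detectable step. Germ-like, Sertoli-like, macrophage-like and Leydig-like cells were all below 1.4 CPM.

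*Nrarp* (ENSMUSG00000078202; chr2:25180758-25183339, plus strand) was at 132 and 102 CPM in the mural-like cells of the controls and 139 and 118 CPM in those of *Sox17*-cKO. Endothelial-like cells, at 92.3, 33.3, 10.2 and 73.0 CPM in the same order, all lay below (difference 1.51 ± 0.33, edgeR, adjusted p = 0.00059). Germ-like cells came next at 22.6 ± 2.71 CPM. Endothelial-like cells exceeded them by 1.17 ± 0.37 (adjusted p = 0.0072), with adjusted p = 0.056 without control 1 and 0.17 without *Sox17*-cKO 2. Germ-like cells exceeded Sertoli-like cells, at 6.04 ± 0.46 CPM, by 1.72 ± 0.21 (adjusted p = 1.1e-09). Stroma-like, peritubular myoid-like and cluster 5 cells were between 1.21 and 1.57 CPM.

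*Hey1* (ENSMUSG00000040289; chr3:8663359-8667256, minus strand), the *Hey* gene of arterial endothelium, was at 154 and 44.4 CPM in the endothelial-like cells of the controls and 20.4 and 39.3 CPM in those of *Sox17*-cKO, from 10, 8, 2 and 7 UMIs. Mural-like cells had 17.3, 12.3, 11.7 and 23.7 CPM in the same order. The highest mural-like value was above the lowest endothelial-like value, though within every library endothelial-like cells were higher. The difference was 1.56 ± 0.54 (edgeR, adjusted p = 0.035), and it passed the threshold in no fit without control 1 (0.21), control 2 (0.13) or *Sox17*-cKO 2 (0.054). It was weaker in 4 of 13 alternatives, and over all of them it ran from 0.77 to 1.89 (edgeR, adjusted p up to 0.42). These include leaving out cells chosen by their *Rgs5* or *Sox17* UMIs after the values were seen. With a library left out the difference ran from 1.09 to 1.89. In control 1 and 2, 7 of the 10 and 5 of the 8 UMIs lay in 4 cells that also had 10 or more *Sox17* UMIs. Sertoli-like cells at 9.79 ± 3.98 and germ-like cells at 8.69 ± 0.50 CPM followed.

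By pair of classes, 9 of the 10 genes differed between mural-like and endothelial-like cells, where 20.2% of all genes tested did. That number was 7 to 9 over the alternatives. *Notch2*, *Notch3*, *Hes1*, *Heyl* and *Nrarp* were higher in mural-like cells (5 genes; 11.7% of all genes were) and *Notch1*, *Jag2*, *Dll4* and *Hey1* in endothelial-like cells (4 genes; 8.42% of all genes were), with *Jag1* not past the threshold. Between stroma-like and mural-like cells 7 genes differed, all higher in mural-like cells (13.5% of all genes were): *Notch1*, *Notch3*, *Jag1*, *Hes1*, *Hey1*, *Heyl* and *Nrarp*. The same 7 symbols were higher in mural-like than in peritubular myoid-like cells, a direction taken by 13.5% of all genes there too (27.5% differed in either direction). Between stroma-like and endothelial-like cells, 7 were higher in endothelial-like cells (10.4% of all genes) and *Notch2* in stroma-like cells (14.8%).

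Germ-like and Sertoli-like cells differed in 8 of the 10, where 78.3% of all genes differed. *Notch1*, *Notch2*, *Hes1* and *Heyl* were higher in Sertoli-like cells (35.5% of all genes were) and *Notch3*, *Jag1*, *Jag2* and *Nrarp* in germ-like cells (42.7%). These counts lie close to the shares of all genes and are not read as an arrangement of the pathway. *Notch3* rested on 62 and 8 UMIs in these classes. Sertoli-like and RT-like cells, neighbours at the valve, differed in 5 (51.4% of all genes differed). *Notch2*, *Jag1*, *Hes1* and *Heyl* were higher in RT-like cells (25.5% of all genes were) and *Hey1* in Sertoli-like cells (25.9%). *Notch1* did not differ detectably. The count of 5 is close to the share of all genes too, and is not read as an arrangement either. In RT-like cells *Jag1* rested on 14 UMIs and *Hey1* on 5.

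Against germ-like cells, 8 genes were higher in endothelial-like cells (24.4% of all genes were) and 0 were higher in germ-like cells (30.9%), where 55.3% of all genes differed. Of these 8, *Notch3* rested on 15 endothelial-like UMIs, all in cells with an *Rgs5* UMI, and *Heyl* on 4. Against mural-like cells, germ-like cells were lower in 8 genes (31.9% of all genes were) and higher in *Jag2* (37.2%), where 69.1% differed. Endothelial-like and Sertoli-like cells differed in 9 (43.7% of all genes differed), *Notch2* alone being higher in Sertoli-like cells. RT-like and endothelial-like cells also differed in 9 (28.5%), with *Notch2* and *Heyl* higher in RT-like cells, and RT-like and mural-like cells in 6 (35.7%). Sertoli-like and stroma-like cells differed in 6 (68.5%): *Notch1*, *Hey1* and *Nrarp* were higher in Sertoli-like cells and *Notch3*, *Jag1* and *Heyl* in stroma-like cells. Stroma-like and peritubular myoid-like cells differed in 4 (29.3%), with *Hey1* higher in stroma-like and *Jag1*, *Hes1* and *Heyl* in peritubular myoid-like cells. This number was 2 to 4 over the alternatives.

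**Figure D3:**
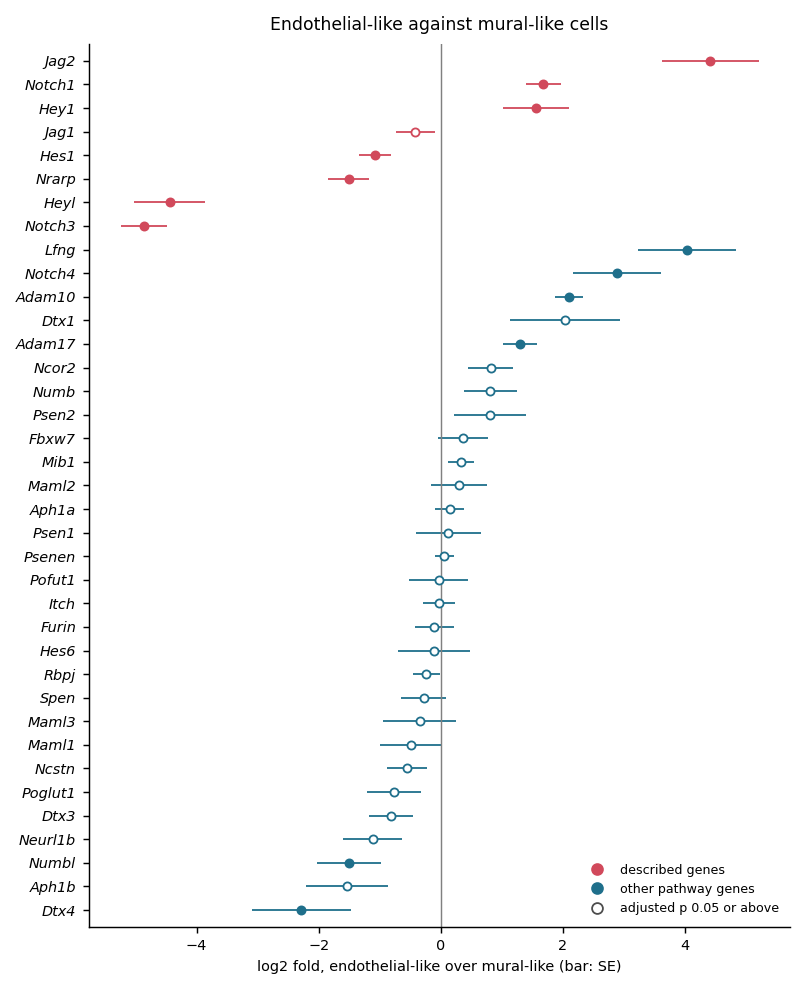
Log2 fold of endothelial-like over mural-like cells (point) with its SE (bar) for the described genes (red) and other genes of the pathway (blue) that had more than 3 UMIs in both classes. Filled points passed an adjusted p of 0.05. *Notch3* and *Heyl* lie furthest to the mural side and *Jag2* is, of the described genes shown, furthest to the endothelial side.

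Of 42 other genes of the pathway, listed by role, 38 were tested between endothelial-like and mural-like cells. Past the threshold were 8, close to the 20.2% of all genes. In endothelial-like cells 5 were higher (8.42% of all genes were), 1 of 1 receptor, 2 of 10 genes of the cleavage machinery and 2 of 5 of the glycosylation of the receptors. In mural-like cells 3 were higher (11.7% of all genes were), 2 of 11 genes of endocytosis and turnover and 1 of 2 tested targets, while 0 of 3 ligands and 0 of 6 genes of the nuclear complex passed. The 3 with the smallest adjusted p were *Adam10*, *Hey2* and *Mfng*. *Adam10*, a protease that cuts ligand-bound receptors, was at 215 and 194 CPM in the endothelial-like cells of the controls and 153 and 247 CPM in those of *Sox17*-cKO. In mural-like cells it was at 27.8 to 47.8 CPM, a difference of 2.10 ± 0.23 (edgeR, adjusted p = 1.5e-09). *Hey2* was at 34.2 to 97.8 CPM in mural-like cells and held 2 UMIs in endothelial-like cells (adjusted p = 3.3e-06). *Mfng*, a glycosyltransferase that alters which ligands a receptor answers to, had 36 UMIs in endothelial-like cells and 0 in mural-like cells, at least 45.9-fold higher at a floor of 3 UMIs.

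For the genes with at least 20 UMIs in their highest class in every library, the genes with the most similar levels were sought by Pearson's r of log2(CPM + 1) over the 40 sums of class and library, among 13024 candidates. *Notch3* went with *Ndufa4l2* (r = 0.96), itself a marker used to name the mural-like class, *Colec11* (0.92) and *Pdgfrb* (0.91). *Heyl* went with *Spry1* (0.88), *Hes1* with *Ktn1* (0.88), *Nrarp* with *Ndfip2* (0.84) and *Notch2* with *Mid1ip1* (0.81) and *Sox9* (0.79). *Sox9* was in the Sertoli list here, and the paper uses it as a marker of both Sertoli and RT cells. Sums from 1 library share its depth and its cells' handling, so these values are descriptions. *Notch1*, *Jag1*, *Jag2*, *Dll4* and *Hey1* had under 20 UMIs in some library.

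The genotypes were compared within each class. The targeted gene *Sox17* (ENSMUSG00000025902; chr1:4490931-4497354, minus strand) gave 94 and 180 UMIs in control RT-like cells and 11 and 23 in *Sox17*-cKO RT-like cells, or 356 and 312 against 45.5 and 34.6 CPM. This was a change of -3.14 ± 0.33 (log2 of *Sox17*-cKO over control, edgeR, adjusted p = 0.018). Which part of the gene is deleted was not named in the sources used here, so the remaining UMIs need not be intact transcripts. In endothelial-like cells the controls held 33 and 62 UMIs of the gene and *Sox17*-cKO held 10 and 18, or 508 and 344 against 102 and 101 CPM. In the controls 24 of the 33 and 43 of the 62 UMIs lay in 4 cells, 2 in each library, that had 10 or more. The difference there was -2.03 ± 0.43 and did not pass the threshold over all genes (unadjusted p = 0.00048, edgeR, adjusted p = 0.48). It did pass with the replicate number as a block (-1.99, edgeR, adjusted p = 0.044), with genes of low counts kept (0.048) and without control 2 (adjusted p = 0.017). In the other 8 classes no library exceeded 1.495 CPM of *Sox17*, and mural-like cells held 0 UMIs.

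For the Notch pathway genes 57 of 100 combinations of gene and class had enough counts for this test, and 0 passed the threshold in edgeR's quasi-likelihood test (lowest adjusted p = 0.69). At an unadjusted p under 0.05 there were 4, and DESeq2 gave 0 by either measure. Of these 4, 2 were among the 6 genes tested in endothelial-like cells, where 3.36% of all genes had such a p, 1 among 4 in RT-like cells (5.75%) and 1 among 6 in peritubular myoid-like cells (0.7%). Of the 2 in endothelial-like cells, *Jag2* could have passed the filter on low counts through the controls alone. So could *Heyl*, the 1 in RT-like cells, through *Sox17*-cKO alone. Of all genes, 0.135% to 1.51% had such a p in the classes with 0 of the 4. Over all genes 0% were called in 9 classes and 0.0882% in RT-like cells. The fold was higher in *Sox17*-cKO in 24 and lower in 33 of the 57. With 2 pools in each group these p-values measure only the spread between pools, and an exact permutation of 2 libraries against 2 has 0.333 as its smallest two-sided p. The genotypes did not overlap in 15 of the 57. Of all genes tested, they did not overlap for 11.6% in germ-like, 20.6% in Sertoli-like, 33.4% in RT-like, 19.9% in stroma-like, 23.3% in peritubular myoid-like and cluster 5, 25.4% in mural-like, 30% in endothelial-like, 24.8% in Leydig-like and 22.5% in macrophage-like cells.

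**Figure D4:**
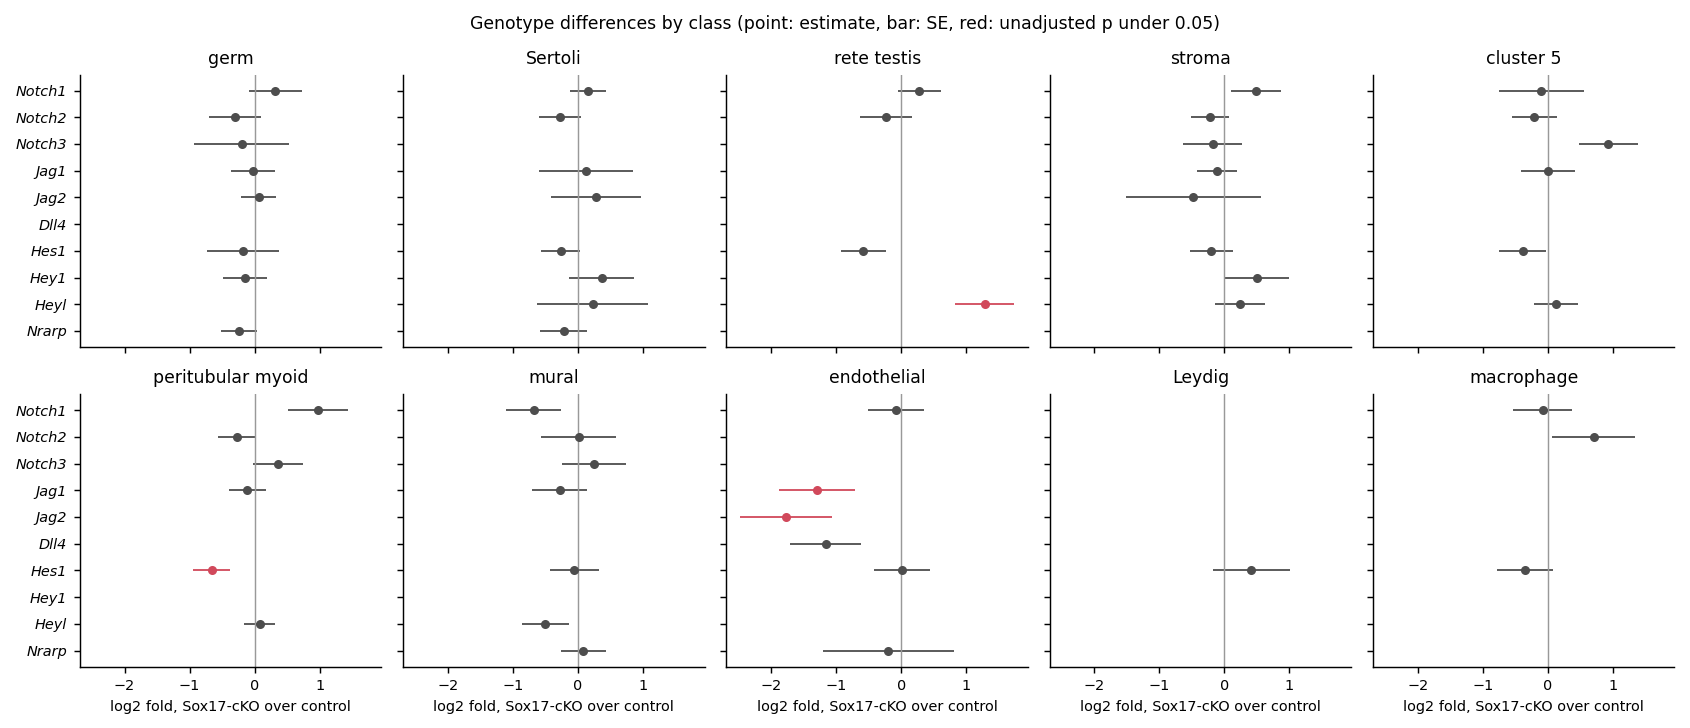
Log2 fold of *Sox17*-cKO over control (point) with its SE (bar) for every gene and class with enough counts to be tested. Red points had an unadjusted p under 0.05 and none passed after adjustment; the 3 ligands in endothelial-like cells and *Heyl* in RT-like cells lie furthest from 0.

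The ligands in endothelial-like cells were among the furthest from 0. *Jag2* was at 123 and 88.8 CPM in the controls and 30.6 and 28.1 CPM in *Sox17*-cKO (8, 16, 3 and 5 UMIs), a difference of -1.77 ± 0.70 (edgeR, unadjusted p = 0.027, adjusted p = 1.0). *Jag1* was at 277 and 133 against 122 and 44.9 CPM (-1.30 ± 0.58, unadjusted p = 0.045) and *Dll4* at 76.9 and 133 against 40.8 and 56.1 CPM (-1.16 ± 0.55, unadjusted p = 0.057). The genotypes did not overlap for these 3, as they did not for 30% of the genes tested in this class. The mural marker list in the same cells ran the same way, at 2723 and 1016 CPM in the controls and 531 and 746 CPM in *Sox17*-cKO. The 7 endothelial-like cells with an *Rgs5* UMI held 3 of the 62 *Jag1*, 4 of the 32 *Jag2* and 6 of the 43 *Dll4* UMIs. Left out one library at a time, the *Jag1* difference ranged from -2.10 without *Sox17*-cKO 1 to -0.60 without *Sox17*-cKO 2. Only 6 of the 10 genes passed the filter on low counts here, which a gene can pass through its higher genotype alone. *Jag2* and *Dll4* had their higher levels in both controls, so the filter could favour a fall in *Sox17*-cKO. Their p-values are not read as support for one. *Notch1* (-0.09 ± 0.43), *Hes1* (0.02 ± 0.43) and *Nrarp* (-0.20 ± 1.01) were closer to 0.

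A part of the ligand signal in the controls lay in few cells. There were 4 endothelial-like cells with 10 or more *Sox17* UMIs, 2 in each control library and 0 in either *Sox17*-cKO library. In control 1 they held 14 of 18 *Jag1*, 6 of 8 *Jag2* and 4 of 5 *Dll4* UMIs, with 25552 of the class's 64998 UMIs. In control 2 they held 12 of 24 *Jag1*, 6 of 16 *Jag2* and 8 of 24 *Dll4* UMIs, with 17562 of 180188 UMIs. These cells were picked by a gene that is itself lower in *Sox17*-cKO and after their ligand UMIs had been seen, so what follows is a description with no test. With these cells left aside, *Jag1* was at 101 and 73.8 CPM in the controls against 122 and 44.9 CPM in *Sox17*-cKO, and *Dll4* at 25.4 and 98.4 against 40.8 and 56.1 CPM, so that the genotypes overlapped. *Jag2* stayed apart, at 50.7 and 61.5 against 30.6 and 28.1 CPM. *Hey1* was then at 76.1 and 18.4 CPM in the controls.

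**Figure D5:**
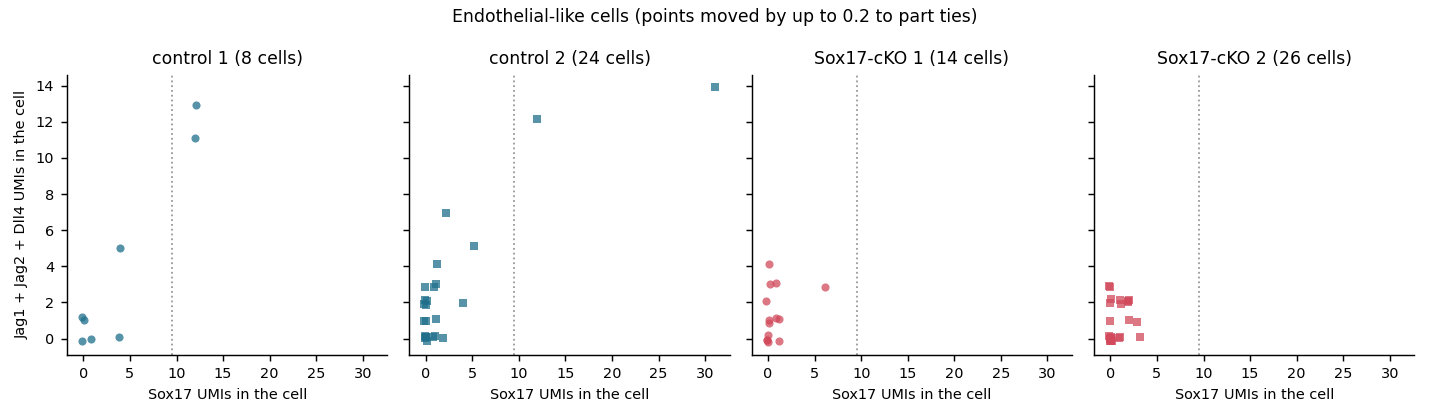
UMIs of *Jag1*, *Jag2* and *Dll4* together against UMIs of *Sox17* in every endothelial-like cell, by library, with a dotted line before 10 *Sox17* UMIs. The 4 cells to the right of the line are from the controls, 2 from each, and carry the most ligand UMIs.

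In RT-like cells *Heyl* was at 22.7 and 19.0 CPM in the controls and 37.2 and 60.2 CPM in *Sox17*-cKO, from 6, 11, 9 and 40 UMIs. The genotypes did not overlap, as for 33.4% of genes tested there, and the difference was 1.28 ± 0.45 (edgeR, unadjusted p = 0.021, adjusted p = 0.69). *Heyl* could have passed the filter on low counts through *Sox17*-cKO alone, so the filter could favour a rise there. Its p-value is not read as support for one. *Hes1* in the same cells was at 378 and 286 against 290 and 173 CPM (-0.58 ± 0.35), *Notch1* at 64.3 and 98.7 against 103 and 105 CPM (0.28 ± 0.33) and *Notch2* at 151 and 91.8 against 132 and 82.7 CPM (-0.23 ± 0.40). None of these passed. In peritubular myoid-like cells *Hes1* was at 146 and 93.1 against 91.6 and 67.3 CPM (-0.66 ± 0.28, unadjusted p = 0.046), and its fold was -0.33 without control 1. Within each replicate number *Hes1* was lower in *Sox17*-cKO there, and with that number as a block the difference was -0.62 (edgeR, unadjusted p = 0.00049, adjusted p = 0.33).

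In Sertoli-like cells the 8 genes tested lay between -0.27 and 0.37, with SEs of 0.27 to 0.86. *Notch1* differed by 0.16 ± 0.27 there and *Hes1* by -0.27 ± 0.29. In germ-like cells *Jag2* differed by 0.06 ± 0.27 and *Nrarp* by -0.24 ± 0.28. In mural-like cells *Notch3* differed by 0.25 ± 0.49, *Nrarp* by 0.08 ± 0.35 and *Heyl* by -0.50 ± 0.36. None of these passed. Of the other pathway genes, 0 of 262 tests passed the threshold, with 1 at an unadjusted p under 0.05.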

How the data were processed

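Cells were captured with the 10x Genomics 3′ kit. The authors deposited whole UMI counts per gene and barcode, not normalized, made with Cell Ranger (6.0.2 in control 1 and *Sox17*-cKO 1, 6.1.2 in control 2 and *Sox17*-cKO 2, per the file headers) against mm10. Reads of a gene outside its counted 3′ end are not captured, so levels were compared between classes and not between genes. Coordinates came from GENCODE vM21, in which 30934 of 31053 identifiers were found.

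Cells with 1000 to 4500 detected genes were kept. The study's limit on mitochondrial UMIs was not applied. Libraries were integrated and clustered with Seurat 5.3.0 (R 4.3.3; 20 principal components, resolution 0.4) on 1993 variable genes, after 7 genes of the Notch pathway or *Sox17* had been taken out. A cluster took a name when the median log2 fold of a marker list was at least 0.8 and led the next list by 0.5, limits set after the data were seen. It also needed at least 50 cells, at least 3 markers above 20 CPM, and no other list with more genes than its own among its 10 leading genes. A shallow cluster further needed a marker of its own among these. Cluster 20, with 17 cells, was too small for a name, and cluster 5 failed on its leading genes. Doublets were scored with Scrublet (Scanpy 1.11.5, Python 3.11.15), which made 208 calls in control 2, 330 in *Sox17*-cKO 2 and 0 elsewhere. Doublets were kept.

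UMIs were summed per class and library and tested with edgeR 4.0.16 (TMM, filterByExpr, quasi-likelihood F test, Benjamini-Hochberg over all genes, two-sided, threshold 0.05). Genotypes were fitted within a class on 4 libraries, and classes in 1 fit with the library as a block. CPM use all UMIs of a class, and folds use TMM scaling. DESeq2 1.42.0 was an alternative. The edgeR steps were tested on simulated data.

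All 10 genes are named. Other pathway genes are named if past the threshold between genotypes or among the 3 smallest adjusted p between endothelial-like and mural-like cells. The genes, lists and tests were chosen with earlier results of these data known. The comparisons without endothelial-like cells holding *Rgs5* or 10 or more *Sox17* UMIs were added after the values were seen. They serve as alternatives for the genotype tests in endothelial-like cells and for the pairs of classes with endothelial-like cells, and as descriptions.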

Additional observations from a re-analysis of the deposited data

Results flagged for a closer look

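Among the combinations of gene and class with enough counts for a test, genotype differences of opposite direction in different classes were seen for 2 genes, with every *Sox17*-cKO library on one side of both controls. *Notch1* was higher in *Sox17*-cKO in Sertoli-like (0.16, log2), RT-like (0.28), stroma-like (0.49) and peritubular myoid-like cells (0.98) and lower in mural-like cells (-0.68). *Heyl* was higher in RT-like cells (1.28) and lower in mural-like cells (-0.50). In RT-like cells *Heyl* could have entered the test through *Sox17*-cKO alone. None of these differences passed the threshold, and how they differed between classes was not tested. Between 19.9% and 33.4% of all genes tested in these classes also had genotypes that did not overlap.

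Cells of the unnamed clusters, which no comparison used, also carried these genes above the limit that a count of 0 allows. In cluster 11, whose best but insufficient match was the Sertoli list and whose median share of mitochondrial UMIs was 29.5%, *Notch1* had a mean of 123.8 CPM and *Notch2* of 76.8 CPM. There *Notch2* was at 121 CPM in control 2 and 97.9 CPM in *Sox17*-cKO 2, above the RT-like cells of these libraries (91.8 and 82.7 CPM). These levels came from 28 and 110 cells, the cluster held 135 *Notch2* UMIs over all libraries, and the difference was not tested. In control 1 and *Sox17*-cKO 1 *Notch2* was at 54.7 and 33.3 CPM, below the RT-like cells (151 and 132 CPM). Cluster 7, at a median mitochondrial share of 35.0%, had means of 68.2 CPM for *Jag2*, 20.8 for *Jag1*, 11.8 for *Nrarp*, 4.2 for *Hey1* and 1.1 for *Dll4*. Cluster 18, led by genes of DNA replication and mitosis, had means of 79.4 CPM for *Hes1*, 27.2 for *Heyl* and 11.6 for *Notch3*.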

How the results depend on the processing

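No Notch pathway gene passed the genotype threshold under any of the 14 alternatives, which included the replicate number as a block (0), leaving out each library (0 to 0) and DESeq2 (0). Samples with the same number deviated together in each of 7 classes checked (r = 0.37 to 0.61 across genes), but with 2 pairs the number was not taken to pair them. The block raised the genes called in RT-like cells from 6 to 275 and those in endothelial-like cells from 0 to 6, *Sox17* among the latter (-1.99, adjusted p = 0.044). *Sox17* in endothelial-like cells also passed with no filter on low counts (-1.999), and its fold was -2.28 without control 2. Over its 14 alternatives the fold ran from -2.28 to -0.60, with the call unchanged in 11. With a library left out the fold ran from -2.28 to -1.77. The alternatives include leaving out endothelial-like cells chosen by their high *Sox17* UMIs, all of them from the controls. That choice itself lowers *Sox17* in the controls, so it cannot test this fold. The difference of *Notch1* between genotypes in endothelial-like cells turned to 0.07 without control 1 and to 0.24 without *Sox17*-cKO 2, and was -0.42 without *Sox17*-cKO 1. Between stroma-like and peritubular myoid-like cells the number of genes past the threshold went from 4 to 2 with no library block, and ranged from 2 to 3 with a library left out. Apart from the choice of cells by their *Sox17* UMIs, the cause of these changes was not tested. For the other 12 pairs of classes compared under alternatives, the number of genes past the threshold stayed within 1.5 times. Depth limits the endothelial-like class most, with 72 cells and 521404 UMIs.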

Other observations

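Endothelial-like cells were not of 1 kind. A UMI of *Ccl21a*, a chemokine of lymphatic endothelium, was found in 1 and 6 endothelial-like cells of the controls and 4 and 5 of *Sox17*-cKO, 16 of 72 in all. These 16 cells held 303 of 303 UMIs of *Mmrn1* and 98 of 102 UMIs of *Prox1*, both lymphatic genes. Of the Notch pathway genes they held 30 of 103 *Notch1* UMIs, 8 of 62 *Jag1*, 3 of 43 *Dll4*, 0 of 32 *Jag2* and 0 of 26 *Nrarp*, with 108106 of the 521404 UMIs of the class. *Sox17* had 1 UMI in them and 122 in the other 56 cells. This split was made after the values were seen and was not tested.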
